A study of Mus musculus with 66 samples.

Results

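The genes described here are 9 members of the cell-lysis machinery, out of 30452 genes in the deposited table of mouse gut sections. They are the gasdermins Gsdma, Gsdmc, Gsdmc2, Gsdmc3, Gsdmc4, Gsdmd and Gsdme and the inflammatory caspases Casp1 and Casp4. They were chosen by name rather than by a value, though with earlier results of these data known. Of the 9, 8 were listed under these symbols, and Gsdme was listed under its older symbol Dfna5 and found through its Ensembl identifier. Transcripts of a gene were summed, and values are TPM, the usual abundance measure that divides by transcript length and scales every library to the same total.

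Gasdermins are proteins with a pore-forming N-terminal domain held in check by a C-terminal domain. Cleavage between the domains frees the N-terminal part, which inserts into the plasma membrane, lets cytokines out and can lyse the cell by pyroptosis. Caspase-1, activated on inflammasomes, and caspase-11, the product of mouse Casp4 and a sensor of bacterial lipopolysaccharide in the cytosol, both cleave gasdermin D. Gasdermin A is best known from skin, and the Gsdmc copies are abundant in the intestinal epithelium, where type 2 cytokines raise them. RNA abundance does not measure cleavage.

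Mice were C57BL/6 animals bought at 6 weeks of age, and no gene was altered in any group. Colitis was induced with 3% dextran sulfate sodium (DSS), a polymer that injures the colonic mucosa, given for 6 days from day 0. Uninjured mice were dissected at day 0 (n = 4), and treated mice at days 3, 6, 9, 14 and 20 (n = 3 per day), so the day 3 mice had not yet completed the exposure. Every mouse gave a mid-colon, a rectum and an anus section, and the 9 mice of days 9, 14 and 20 also gave a section of squamous neo-epithelium, for 66 samples in 21 groups. The muscle layer had been removed from each section.

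The defining markers of the sections matched their labels at day 0. The summed level of 6 colonocyte markers was 6910 to 9086 TPM in mid-colon, 6455 to 8443 in rectum and 472 to 1734 in anus. The summed level of 6 squamous markers was 9955 to 16320 TPM in anus and 12.9 to 123 in rectum. The anus sections thus held colonocyte RNA as well as squamous RNA at day 0, and they also held skeletal muscle markers (832 to 9319 TPM over 4 genes). In bulk samples, fewer cells of a type and less RNA per cell cannot be told apart. The table held no read counts, so depth is unknown, and libraries detected 11268 to 13789 genes at 1 TPM or more.

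The Gsdmc copies lie side by side on chromosome 15, on the minus strand (GRCm38, GENCODE vM21). Gsdmc spans chr15:63775968-63808759, Gsdmc2 chr15:63824346-63845177, Gsdmc3 chr15:63857724-63878558 and Gsdmc4 chr15:63891264-63912297. The coding sequences of the most abundant annotated transcripts were 97.1% identical between Gsdmc2 and Gsdmc3 and 93.0% identical between Gsdmc4 and either of these. Gsdmc was 82.8% to 84% identical to the other copies. The first 75 coding bases, the length of 1 read, are shown because they carry the problem of telling the copies apart. Capitals mark bases that differ from Gsdmc4. They lie in the first coding exon at chr15:63804518-63804592 for Gsdmc, chr15:63835869-63835943 for Gsdmc2, chr15:63869223-63869297 for Gsdmc3 and chr15:63902856-63902930 for Gsdmc4.
Gsdmc: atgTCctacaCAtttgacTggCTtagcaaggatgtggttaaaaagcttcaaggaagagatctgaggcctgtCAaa
Gsdmc2: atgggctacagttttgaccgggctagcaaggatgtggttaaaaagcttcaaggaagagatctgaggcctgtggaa
Gsdmc3: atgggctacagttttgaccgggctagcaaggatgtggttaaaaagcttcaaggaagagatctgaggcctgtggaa
Gsdmc4: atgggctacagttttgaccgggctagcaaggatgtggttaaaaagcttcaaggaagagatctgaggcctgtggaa
A read from this stretch fits Gsdmc2, Gsdmc3 and Gsdmc4 equally, whereas Gsdmc differs from them at 9 bases.

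Other stretches separate the copies. The 75-base coding window in which the closest pair of Gsdmc2, Gsdmc3 and Gsdmc4 differs most covers coding bases 1067 to 1141, counted from the start codon, across coding exons 9 and 10. For Gsdmc4 these exon parts are chr15:63893118-63893141 and chr15:63892649-63892699, for Gsdmc2 chr15:63826165-63826188 and chr15:63825689-63825739 and for Gsdmc3 chr15:63859592-63859615 and chr15:63859116-63859166.
Gsdmc4: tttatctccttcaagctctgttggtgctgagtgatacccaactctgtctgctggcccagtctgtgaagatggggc
Gsdmc2: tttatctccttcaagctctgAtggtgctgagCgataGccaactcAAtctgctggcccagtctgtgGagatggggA
Gsdmc3: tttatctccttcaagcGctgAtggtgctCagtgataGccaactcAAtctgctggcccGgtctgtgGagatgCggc
Here Gsdmc2 differs from Gsdmc4 at 7 bases and Gsdmc3 at 9. Over the quantified transcripts, 39.3% of the 75-base windows of Gsdmc2 also occurred in another gene, as did 35.8% of those of Gsdmc3, 28.5% of Gsdmc4 and 10.9% of Gsdmc. For Gsdma the share was 3.43%, and it was 0.0% for Gsdmd, Gsdme, Casp1 and Casp4. The split among Gsdmc2, Gsdmc3 and Gsdmc4 therefore rests on the part of each transcript that is its own, and their separate values are less certain than those of the other members.

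In the uninjured colon, Gsdmc4 was the most abundant gasdermin RNA. It was at 633, 962, 965 and 977 TPM in the 4 mid-colon samples, 782, 783, 867 and 886 TPM in rectum and 69.2, 69.9, 122 and 239 TPM in anus. Gsdmc2 averaged 258 ± 15.2 TPM (SD, n = 4) in rectum and Gsdmc3 136 ± 17.4 TPM. Gsdmd, the substrate of both caspases, stood at 135 ± 8.21 TPM, and Casp1 at 162 ± 13.3 TPM. Casp4 was lower, at 28.3 ± 4.72 TPM, and Gsdme, Gsdmc and Gsdma were at 2.21 ± 0.36, 2.78 ± 0.282 and 0.605 ± 0.206 TPM. In order of mean level per length, rectum ran Gsdmc4, Gsdmc2, Casp1, Gsdmc3, Gsdmd, Casp4, Gsdmc, Gsdme and Gsdma. In that order the ranges of Casp1 and Gsdmc3, of Gsdmc3 and Gsdmd, and of Gsdmc and Gsdme overlapped, and those of the other neighbours did not.

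The anus held the same 9 genes in another order, with Gsdma and Gsdmc far above their rectal levels. Gsdma read 27, 38.8, 39.6 and 72.5 TPM in anus against 0.391, 0.508, 0.656 and 0.867 TPM in rectum, with no overlap. Gsdmc read 18.7, 23.8, 28.6 and 79.5 TPM against 2.48, 2.63, 2.93 and 3.1 TPM, also with no overlap. The log2 difference, on the log2(TPM + 1) scale used for every test here, was 4.74 ± 0.27 (SE, adjusted p = 4.41e-07) for Gsdma and 3.12 ± 0.37 (SE, adjusted p = 7.96e-05) for Gsdmc. Gsdmc2, Gsdmc3, Gsdmc4, Gsdmd, Casp1 and Casp4 were lower in anus. Their differences ran from -2.91 (adjusted p = 7.33e-05) for Gsdmc4 to -0.57 (adjusted p = 0.00727) for Casp4, and those of Gsdmd and Casp1 were -1.78 (adjusted p = 0.00015) and -1.63 (adjusted p = 0.000155). Thus 8 of 9 members were called at an adjusted p under 0.05, beside 60.3% of all 13158 genes tested. Gsdme was at 1.78 ± 0.937 against 2.21 ± 0.36 TPM and was not called (0.367, adjusted p). The 4 similar copies summed were lower in anus (-2.41, adjusted p = 7.84e-05). The Casp4 call was lost when all 66 samples shared 1 fit (adjusted p = 0.116).

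Between rectum and mid-colon at day 0, none of the 8 members tested passed limma's test and none had an unadjusted p under 0.05, where 1.79% of genes were called (979 rather than 216 genes with the mouse as a replicate block, and still no member). Gsdma was under the level filter. The largest difference was 0.27 ± 0.21 (SE, adjusted p = 0.431) for Casp4, and Gsdmd differed by -0.02 ± 0.09 (SE, adjusted p = 0.891).

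**Figure D1:**
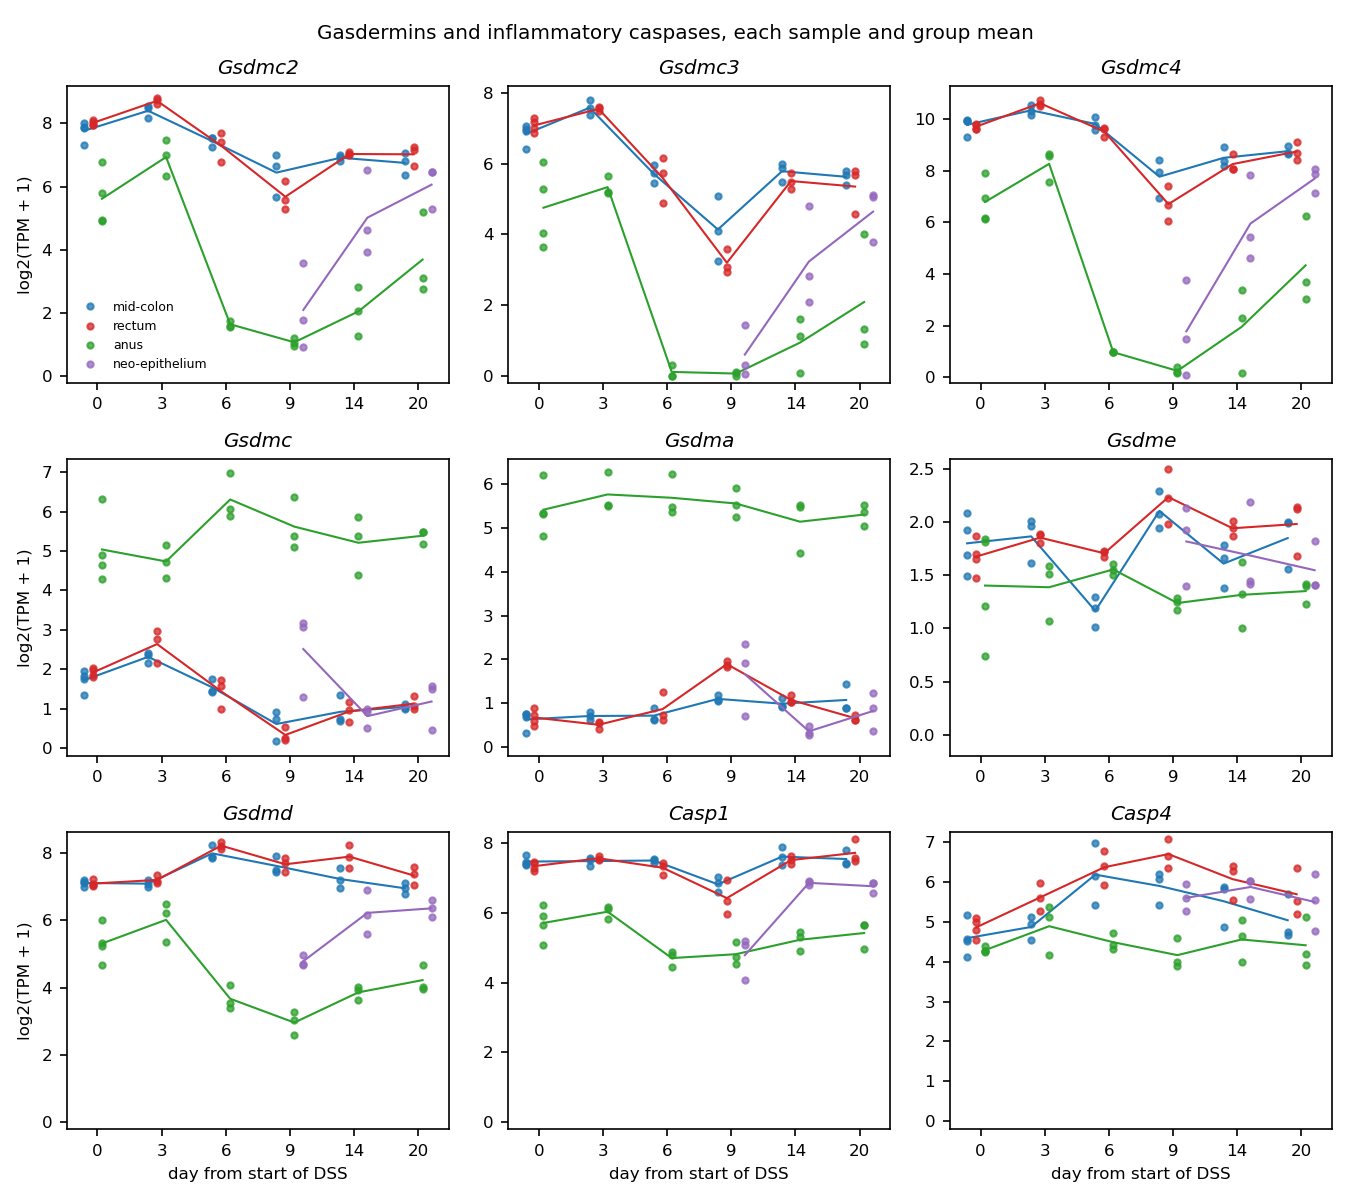
Level of each member as log2(TPM + 1) against the day from the start of DSS, with 1 point per sample, coloured by section, and lines through the group means of the log values. Gsdmc2, Gsdmc3 and Gsdmc4 are all low at day 9 in mid-colon and rectum, and at day 6 Gsdmc3 is the lowest of these relative to day 0. Gsdmc and Gsdma are high in anus alone among the sections. Casp1 and Gsdmd stay well above their lowest levels in mid-colon and rectum throughout, whereas Casp4 in mid-colon overlaps anus at day 0.

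At day 3, during the exposure, the colonic Gsdmc copies were higher in rectum. Gsdmc4 read 1446, 1516 and 1704 TPM against 782, 783, 867 and 886 TPM at day 0, with no overlap, a log2 difference of 0.90 ± 0.09 (SE, adjusted p = 0.000612). Gsdmc2 rose from 258 ± 15.2 to 418 ± 26.4 TPM (SD, n = 3), by 0.70 ± 0.08 (SE, adjusted p = 0.00155). Gsdmc3 rose from 136 ± 17.4 to 188 ± 7.37 TPM, by 0.47 ± 0.11 (SE, adjusted p = 0.0337). Casp4, which encodes the lipopolysaccharide-sensing caspase-11, rose from 28.3 ± 4.72 to 48.9 ± 12.5 TPM, by 0.75 ± 0.18 (SE, adjusted p = 0.0442). These 4 of 8 members tested were called, beside 6.62% of all genes. Gsdmc, at 3.46, 5.86 and 6.87 TPM, was also above all its day 0 values, but its adjusted p was 0.0616, and it was called with TMM factors (adjusted p = 0.0415) and without mouse 6 (adjusted p = 0.0107).

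Mice are numbered 1 to 4 at day 0, 5 to 7 at day 3 and 8 to 10 at day 6. Those of later days are 11 to 13 at day 9, 14 to 16 at day 14 and 17 to 19 at day 20. The Gsdmc3 and Casp4 calls at day 3 did not hold when some single mice were left out, though their differences stayed at 0.40 to 0.53 and 0.57 to 0.93. That of Gsdmc3 was lost without any 1 of mice 2, 3, 5 and 6 (adjusted p = 0.0678 to 0.123) and that of Casp4 without any 1 of mice 1, 2, 3, 5 and 6 (adjusted p = 0.0679 to 0.149). The Casp4 call was also lost with TMM factors (adjusted p = 0.0522) and with low genes kept in the fit (adjusted p = 0.115), as was that of Gsdmc3 with low genes kept in (adjusted p = 0.0738). With all 66 samples in 1 fit none of the 4 was called (Gsdmc4, adjusted p = 0.772). The 6 colonocyte markers summed to 8713 to 9617 TPM at day 3 against 6455 to 8443 at day 0, and 2 of the 6 were called higher and 1 lower. Their part in the rise was not tested. Il18, the epithelial interleukin-18 precursor that caspase-1 processes, rose at the same time (from 170.5 to 382 TPM, log2 difference 1.16, adjusted p = 0.000372).

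In mid-colon at day 3, no member passed limma's test, 4 had an unadjusted p under 0.05, and 0.375% of genes were called. The values of Gsdmc4 were 1133, 1273 and 1472 TPM against 633, 962, 965 and 977 TPM at day 0, and the groups did not overlap for Gsdmc, Gsdmc2, Gsdmc3 or Gsdmc4. Their log2 differences lay between 0.56 (adjusted p = 0.255) for Gsdmc4 and 0.75 (adjusted p = 0.155) for Gsdmc3. The median over all genes tested in this comparison was 0.14, and 0.00 after TMM scaling. In anus at day 3, 0.044% of genes were called and no member was, while 2 members had an unadjusted p under 0.05 in limma's test. The anal Gsdmc4 values were 188, 376 and 401 TPM against 69.2, 69.9, 122 and 239 TPM, which overlapped, and the colonocyte markers summed to 1162 to 2724 TPM against 472 to 1734.

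By day 6, the end of DSS, the members had parted in rectum. Gsdmd and Casp4 were up, Gsdmc3 and Gsdmc2 were down, and Gsdmc4, Casp1 and Gsdme were near their day 0 levels. Gsdmd read 275, 294 and 317 TPM against 129, 131, 132 and 147 TPM, a rise of 1.13 ± 0.09 (SE, adjusted p = 0.000117), with every treated sample above every untreated one. Casp4 read 59.5, 83.8 and 109 TPM against 22.4, 26.9, 31 and 33 TPM, a rise of 1.51 ± 0.21 (SE, adjusted p = 0.00116). Gsdmc3 read 28.7, 52.5 and 70.5 TPM against 117, 127, 145 and 156 TPM, a difference of -1.49 ± 0.26 (SE, adjusted p = 0.00296). Gsdmc4, by contrast, read 622, 775 and 791 TPM against 782, 783, 867 and 886 TPM, which overlapped, with a difference of -0.19 ± 0.11 (SE, adjusted p = 0.166).

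Of 8 members tested in rectum at day 6, 2 were called higher and 2 lower, beside 48.7% of all genes. The median log2 difference of all genes was -0.27, and -0.03 after TMM scaling. With TMM factors the Gsdmc2 call, -0.72 (adjusted p = 0.0151), was lost (adjusted p = 0.0758) and the Gsdmc4 difference changed sign, to 0.085. With mitochondrial genes left out, Gsdmc4 was called lower (adjusted p = 0.0485), as was Gsdmc (adjusted p = 0.0407), and Gsdmc was also called without mouse 8 (adjusted p = 0.0362). The Gsdmc2 call was lost in the fit of all 66 samples too (adjusted p = 0.23), whereas the 4 similar copies summed were called lower (-0.39, adjusted p = 0.0274). The Gsdmd, Casp4 and Gsdmc3 calls held under TMM factors. Casp1 was at 157 ± 18.9 against 162 ± 13.3 TPM, with a difference of -0.05 ± 0.11 (SE, adjusted p = 0.742). The colonocyte markers, at 7617 to 8665 TPM, overlapped their day 0 range of 6455 to 8443, while neutrophil markers summed to 362 to 3563 TPM against 0.797 to 5.92. The part of the neutrophils in the rises was not tested.

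The mid-colon at day 6 showed the same 3 members moving, with 2 of 8 higher and 1 lower beside 14.9% of all genes. Gsdmd read 231, 233 and 296 TPM against 126, 137, 139 and 146 TPM, a rise of 0.88 ± 0.13 (SE, adjusted p = 0.00377). Casp4 read 42, 69.6 and 125 TPM against 16.3, 21.8, 22.6 and 35.2 TPM, a rise of 1.59 ± 0.35 (SE, adjusted p = 0.018), and this call was lost without mouse 10 (adjusted p = 0.0646) and with low genes kept in the fit (adjusted p = 0.0644). Gsdmc3 fell from 116 ± 21.7 to 52.2 ± 9.27 TPM, a difference of -1.12 ± 0.19 (SE, adjusted p = 0.00644), a call lost with all 66 samples in 1 fit (adjusted p = 0.102) and not shared by the 4 similar copies summed (-0.11, adjusted p = 0.68). Gsdmc2 was called lower without mouse 4 (adjusted p = 0.0117). Gsdmc4 was at 900 ± 169 against 884 ± 168 TPM, with a difference of 0.03 ± 0.18 (SE, adjusted p = 0.914). Gsdme was lower in each of the 3 treated samples, 1.01, 1.28 and 1.46 against 1.82, 2.23, 2.81 and 3.26 TPM, and just missed the threshold (0.0508, adjusted p). It passed it with mitochondrial genes left out (adjusted p = 0.0371), in the fit of all 66 samples (adjusted p = 0.0198) and without mouse 4 (adjusted p = 0.0245).

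**Figure D2:**
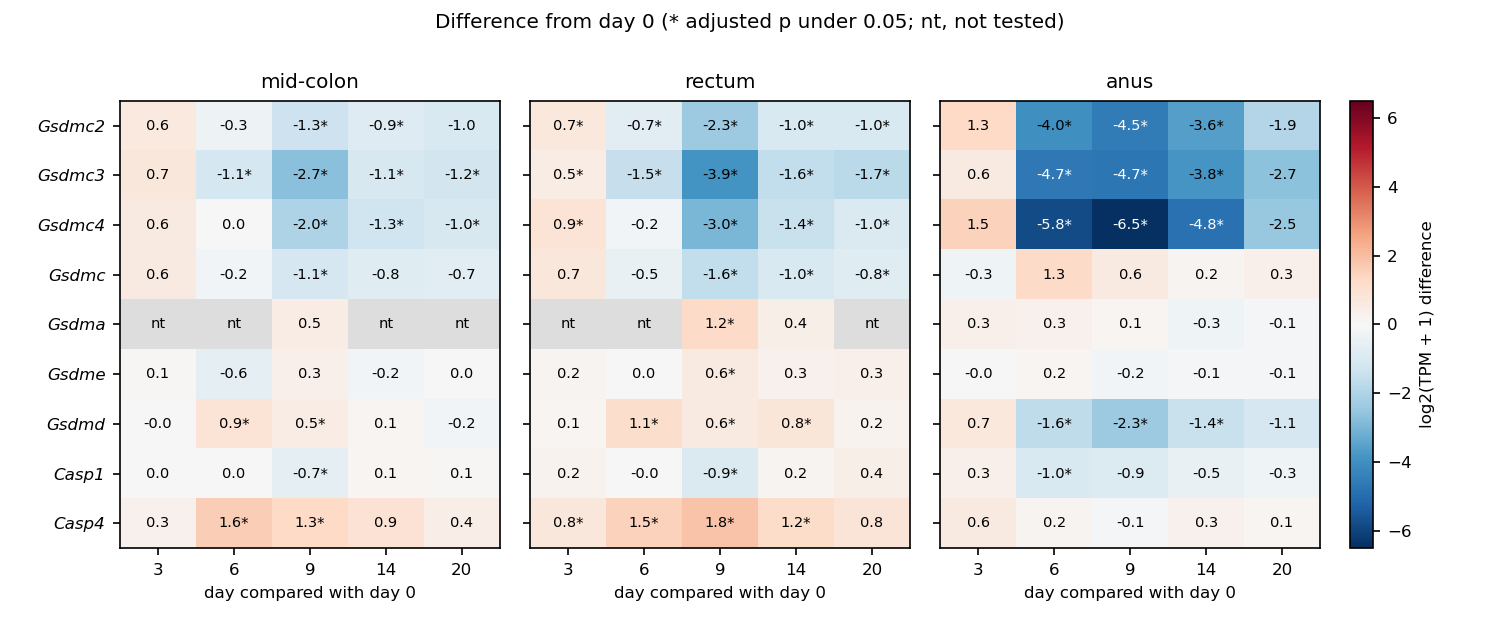
Log2(TPM + 1) difference from day 0 of the same section for each member (rows) and day (columns) in mid-colon, rectum and anus, with blue lower and red higher. Gsdmc2, Gsdmc3 and Gsdmc4 are lowest at day 9 in mid-colon and rectum and at days 6 and 9 in anus, while Casp4 is higher at days 6 and 9 in mid-colon and at days 3 to 14 in rectum.

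Day 9 brought the lowest levels of the colonic Gsdmc copies. In rectum Gsdmc4 read 65.2, 100.4 and 167 TPM, a difference of -2.995 ± 0.26 (SE, adjusted p = 3.36e-05) from day 0. Gsdmc3 read 6.63, 7.39 and 11.1 TPM, a difference of -3.89 ± 0.18 (SE, adjusted p = 1.29e-06), the largest of any member in that section. Gsdmc2 fell from 258 ± 15.2 to 52 ± 17.7 TPM, a difference of -2.34 ± 0.19 (SE, adjusted p = 2.52e-05), and the scarce Gsdmc from 2.78 ± 0.282 to 0.264 ± 0.162 TPM, a difference of -1.59 ± 0.15 (SE, adjusted p = 5.36e-05). No day 9 sample of these 4 genes reached the lowest day 0 sample.

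Casp1 fell as well at day 9, the one time it was called in rectum, from 147, 155, 171 and 175 TPM to 62.2, 81 and 122 TPM, a difference of -0.92 ± 0.20 (SE, adjusted p = 0.00497). Casp4 and Gsdmd moved the other way. Casp4 read 80.6, 100.3 and 134 TPM, a rise of 1.84 ± 0.20 (SE, adjusted p = 9.01e-05), and was then above Casp1 in the mean, whereas at day 0 Casp1 was the higher of these caspases in every rectal sample. Gsdmd was at 202 ± 28.1 TPM, a rise of 0.57 ± 0.12 (SE, adjusted p = 0.00331), which was lost with TMM factors (adjusted p = 0.0844). Gsdme rose from 2.21 ± 0.36 to 3.77 ± 0.87 TPM, by 0.56 ± 0.17 (SE, adjusted p = 0.0238), a call lost without any 1 of mice 2, 3, 4, 11 and 13 (adjusted p = 0.0525 to 0.0734) and with mitochondrial genes left out (adjusted p = 0.0543). Gsdma, from 0.391, 0.508, 0.656 and 0.867 TPM to 2.56, 2.68 and 2.92 TPM, rose by 1.22 ± 0.16 (SE, adjusted p = 0.000246), still far under its anal level.

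Every member was thus called in rectum at day 9, 4 higher and 5 lower, beside 53.5% of all genes. Neutrophil markers summed to 11100 to 13160 TPM and all 6 were called higher, while all 6 colonocyte markers were called lower, at 1603 to 2025 TPM in sum against 6455 to 8443. Squamous markers summed to 101 to 742 TPM. The part of these cell types in the changes was not tested.

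In mid-colon at day 9, 7 of 9 members were called, 2 higher and 5 lower, beside 43.4% of genes. Gsdmc4 read 120.4, 245 and 340.5 TPM, a difference of -2.01 ± 0.31 (SE, adjusted p = 0.000583), and Gsdmc3 8.49, 16 and 32.9 TPM, a difference of -2.70 ± 0.36 (SE, adjusted p = 0.000249). The differences of Gsdmc2, Gsdmc and Casp1 were -1.32 (adjusted p = 0.00474), -1.11 (adjusted p = 0.00322) and -0.65 (adjusted p = 0.00601). Gsdmc went from 2.34 ± 0.586 to 0.559 ± 0.383 TPM. At this level the pseudocount of 1 makes the difference smaller, so it does not rank beside those of the abundant copies. Casp4 rose to 42.1, 65.8 and 72.8 TPM, by 1.31 ± 0.27 (SE, adjusted p = 0.00296). Gsdmd rose to 169.9, 179 and 240.5 TPM, by 0.50 ± 0.16 (SE, adjusted p = 0.0238), a call lost with TMM factors (adjusted p = 0.0748), in the fit of all 66 samples (adjusted p = 0.0759) and without any 1 of mice 2 and 12 (adjusted p = 0.0687 to 0.1). Gsdma was above its day 0 range in all 3 samples (0.0509, adjusted p) and passed without mouse 4 (adjusted p = 0.0457) , with low genes kept in (adjusted p = 0.0373) and with mitochondrial genes left out (adjusted p = 0.0495). The 6 colonocyte markers were called lower here too, at 1505 to 2597 TPM against 6910 to 9086.

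The day 9 changes of rectum and mid-colon were set against each other in an interaction test, in which 6.55% of genes were called and no member was, although 4 of 9 had an unadjusted p under 0.05 in limma's test. The largest gap among the abundant members was -1.19 ± 0.45 (SE, adjusted p = 0.161) for Gsdmc3, and the gap was 0.07 ± 0.19 (SE, adjusted p = 0.895) for Gsdmd. Gsdma, at 0.75 (adjusted p = 0.0548), was called with the mouse as a replicate block (adjusted p = 0.0309) and with low genes kept in (adjusted p = 0.0396). Without mouse 11, Gsdmc2 (adjusted p = 0.0248) and Gsdmc3 (adjusted p = 0.0277) were called, with larger falls in rectum.

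At day 14 the colonic copies were still low, while Gsdmd and Casp4 were still high in rectum. Gsdmc4 read 264, 268 and 393 TPM in rectum, a difference of -1.45 ± 0.15 (SE, adjusted p = 0.00414) from day 0, and the differences of Gsdmc3, Gsdmc2 and Gsdmc were -1.58 (adjusted p = 0.00293), -0.98 (adjusted p = 0.00233) and -0.99 (adjusted p = 0.0134). Gsdmd read 187, 234 and 297 TPM, a rise of 0.80 ± 0.15 (SE, adjusted p = 0.0177), and Casp4 45.5, 76.2 and 83.5 TPM, a rise of 1.21 ± 0.23 (SE, adjusted p = 0.0169). Casp1 was at 183 ± 14.1 against 162 ± 13.3 TPM. Of 9 members tested, 2 were called higher and 4 lower, beside 15.8% of genes. The Gsdmd call was lost without any 1 of mice 2, 3 and 16 (adjusted p = 0.0545 to 0.0674), that of Casp4 without any 1 of mice 2, 3 and 16 (adjusted p = 0.0504 to 0.0699) and that of Gsdmc without mouse 16 (adjusted p = 0.0528). In the fit of all 66 samples the calls of Gsdmc (adjusted p = 0.0528), Gsdmc2 (adjusted p = 0.159) and Gsdmc4 (adjusted p = 0.0944) were lost. Colonocyte markers summed to 1856 to 4761 TPM, with 4 of 6 called lower.

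At day 20, 2 weeks after the last DSS, rectal Gsdmc4 read 342, 413 and 542 TPM and had not regained its day 0 level, with a difference of -0.96 ± 0.15 (SE, adjusted p = 0.0193). Gsdmc3, Gsdmc2 and Gsdmc were also lower, with differences of -1.74 (adjusted p = 0.0193), -0.99 (adjusted p = 0.0175) and -0.79 (adjusted p = 0.0313). These 4 of 8 members were called, none higher, beside 7.68% of genes. Gsdmd and Casp4 were no longer called (0.272 and 0.0885, adjusted p), although both passed without mouse 19 (adjusted p = 0.0492 and adjusted p = 0.0209). The calls were lost without any 1 of mice 1, 2 and 3 (adjusted p = 0.0631 to 0.0706) for Gsdmc4, any 1 of mice 1, 2 and 3 (adjusted p = 0.0588 to 0.0693) for Gsdmc3, any 1 of mice 1, 2 and 3 (adjusted p = 0.0584 to 0.068) for Gsdmc2 and any 1 of mice 1, 2, 3, 4, 17 and 18 (adjusted p = 0.0525 to 0.0967) for Gsdmc. With low genes kept in the fit, the calls of Gsdmc (adjusted p = 0.0638), Gsdmc3 (adjusted p = 0.0532) and Gsdmc4 (adjusted p = 0.0515) were lost. In the fit of all 66 samples, those of Gsdmc (adjusted p = 0.149), Gsdmc2 (adjusted p = 0.174) and Gsdmc4 (adjusted p = 0.317) were lost.

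In mid-colon, 3 of 8 members were called at day 14 and 2 of 8 at day 20, all lower, beside 4.36% and 1.56% of genes. Gsdmc4 read 288, 334 and 478 TPM at day 14 and 393, 411 and 487 TPM at day 20, all under the lowest day 0 sample. Its differences were -1.28 ± 0.22 (SE, adjusted p = 0.0183) and -1.02 ± 0.19 (SE, adjusted p = 0.0362). Gsdmc3 differed by -1.05 (adjusted p = 0.025) and -1.21 (adjusted p = 0.022), and Gsdmc2 by -0.85 (adjusted p = 0.0356) and -1.01 (adjusted p = 0.0549). These calls did not hold when some single mice were left out, though all the differences stayed negative. That of Gsdmc4 stayed at -1.485 to -1.12 at day 14 and at -1.17 to -0.96 at day 20. At day 14, Gsdmc4 lost its call without any 1 of mice 1, 2, 3, 15 and 16 (adjusted p = 0.0594 to 0.0959), Gsdmc3 without any 1 of mice 1, 2, 3, 15 and 16 (adjusted p = 0.0791 to 0.0931) and Gsdmc2 without any 1 of mice 1, 2, 3, 15 and 16 (adjusted p = 0.104 to 0.129). At day 20, Gsdmc4 lost it without any 1 of mice 1, 2, 3, 17 and 18 (adjusted p = 0.0683 to 0.117) and Gsdmc3 without any 1 of mice 1, 2, 3, 17 and 18 (adjusted p = 0.0561 to 0.0851), whereas Gsdmc2 was called without any 1 of mice 4 and 19 (adjusted p = 0.0157 to 0.0275). All 5 calls were lost with low genes kept in the fit, from adjusted p = 0.0573 for Gsdmc4 at day 14 to adjusted p = 0.11 for Gsdmc4 at day 20. They were lost as well in the fit of all 66 samples, from adjusted p = 0.104 for Gsdmc3 at day 20 to adjusted p = 0.275 for Gsdmc2 at day 14. With TMM factors Gsdmc2 was called at day 20 (adjusted p = 0.0343). Gsdmc and Casp4, not called at day 14, were called without any 1 of mice 4 and 14 (adjusted p = 0.023 to 0.0375) and without any 1 of mice 4 and 14 (adjusted p = 0.0235 to 0.0446), and at day 20 Gsdmc was called without mouse 4 (adjusted p = 0.0339). Gsdmd and Casp1 overlapped their day 0 ranges, at 123 ± 14.1 and 188 ± 31.8 TPM at day 20.

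In the anus Gsdmc2, Gsdmc3 and Gsdmc4 fell to a few TPM or less at days 6 and 9. At day 6 Gsdmc4 read 0.959, 0.966 and 0.981 TPM and at day 9 0.112, 0.166 and 0.311 TPM, against 69.2, 69.9, 122 and 239 TPM at day 0. Gsdmc3 was listed at 0 in 2 of 3 samples at day 6 and in 1 of 3 at day 9, and no other sample of those days exceeded 0.242 TPM. Gsdmc2 fell from 55.9 ± 37.7 to 2.13 ± 0.225 and 1.11 ± 0.178 TPM. The log2 differences at day 6 were -5.81 (adjusted p = 0.000211) for Gsdmc4, -4.65 (adjusted p = 0.00107) for Gsdmc3 and -3.97 (adjusted p = 0.000796) for Gsdmc2, and at day 9 -6.53 (adjusted p = 0.000112), -4.70 (adjusted p = 0.0013) and -4.54 (adjusted p = 0.000465). With samples listed at 0, the fitted differences of Gsdmc3 depend on the pseudocount and are no bound. The colonocyte markers moved with the copies. Their sum was 19.7 to 38.6 TPM at day 6 and 19.4 to 30.3 TPM at day 9 against 472 to 1734 at day 0, with 6 and then 5 of 6 called lower, and their part in the result was not tested.

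Gsdmd, which was up in colon and rectum at these days, was down in anus. It read 9.59, 10.6 and 15.7 TPM at day 6 and 4.97, 7.18 and 8.66 TPM at day 9 against 24.6, 36.4, 39 and 63 TPM, differences of -1.64 ± 0.31 (SE, adjusted p = 0.00968) and -2.35 ± 0.31 (SE, adjusted p = 0.0034). Casp1 fell from 32.7, 48.9, 59.6 and 73.3 TPM to 20.7, 26.8 and 28.5 TPM at day 6, a difference of -1.01 ± 0.27 (SE, adjusted p = 0.0374). That call was lost without any 1 of mice 1, 2, 4, 8, 9 and 10 (adjusted p = 0.0602 to 0.137) and with low genes kept in (adjusted p = 0.0743). At day 9 Casp1 was at 27.7 ± 6.64 TPM (0.117, adjusted p) and was called without mouse 3 (adjusted p = 0.0339) and in the fit of all 66 samples (adjusted p = 0.0022). In all, 5 of 9 members were lower at day 6 and 4 of 9 at day 9, none higher, beside 15% and 5.09% of genes.

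Gsdma and Gsdmc, the members with their highest levels in anus, were not called there. Gsdma read 40.0, 43.6 and 74 TPM at day 6 and 36.8, 45.1 and 58.8 TPM at day 9, with the groups overlapping at both days and differences of 0.27 ± 0.34 (SE, adjusted p = 0.669) and 0.14 ± 0.31 (SE, adjusted p = 0.867). Gsdmc read 57.9, 65.5 and 126 TPM at day 6 against 18.7, 23.8, 28.6 and 79.5 TPM at day 0, a difference of 1.27 ± 0.47 (SE, adjusted p = 0.114). It was called higher without mouse 1 (adjusted p = 0.011), the day 0 sample with the highest Gsdmc, and in the fit of all 66 samples (adjusted p = 0.00648). Casp4, at 21.6 ± 3.32 TPM at day 6 against 18.6 ± 0.872, differed by 0.20 ± 0.16 (SE, adjusted p = 0.491), so the rise seen in colon and rectum was not detected here. Neutrophil markers in anus were already at 346 to 1365 TPM at day 0 and stood at 1370 to 3892 at day 6.

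At day 14 the anus still had 4 of 9 members lower, beside 4.27% of genes. At day 20 none was called, beside 1.46% of genes, while 4 had an unadjusted p under 0.05 in limma's test. Gsdmc4 read 0.125, 3.96 and 9.41 TPM at day 14 and 7.25, 12 and 75.3 TPM at day 20, so samples of a day differed more than 10-fold. The day 14 differences were -4.83 (adjusted p = 0.0131) for Gsdmc4, -3.82 (adjusted p = 0.0146) for Gsdmc3, -3.56 (adjusted p = 0.0114) for Gsdmc2 and -1.45 (adjusted p = 0.0322) for Gsdmd. The Gsdmd call was lost without any 1 of mice 1, 2, 14, 15 and 16 (adjusted p = 0.0582 to 0.134), that of Gsdmc3 without any 1 of mice 2 and 16 (adjusted p = 0.0547 to 0.0605) and that of Gsdmc4 without mouse 2 (adjusted p = 0.0509). With low genes kept in the fit, the calls of Gsdmd (adjusted p = 0.079) and Gsdmc3 (adjusted p = 0.0511) were lost. At day 20 Gsdmc3 and Gsdmc4 were called without mouse 17 (adjusted p = 0.048 and adjusted p = 0.0309), and Gsdmc2, Gsdmc3, Gsdmc4 and Gsdmd in the fit of all 66 samples (Gsdmd, adjusted p = 0.00173). Colonocyte markers summed to 26.5 to 104 TPM at day 14 and 61.7 to 474 TPM at day 20.

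Whether rectum and anus differed in their changes was tested directly, in interaction fits chosen after the values had been seen. At day 6, 6 members changed more upward or less downward in rectum and 1 the other way, beside 21.5% of genes. Gsdmd rose in rectum and fell in anus, a gap of 2.77 ± 0.34 (SE, adjusted p = 0.000126). The gap was 5.62 ± 0.45 (SE, adjusted p = 5.05e-06) for Gsdmc4 and 1.31 ± 0.27 (SE, adjusted p = 0.00384) for Casp4, and for Gsdmc it was -1.75 ± 0.56 (SE, adjusted p = 0.0398) in the other direction. At day 9, 4 members differed upward and 1 downward, beside 19.9% of genes. The gaps were then 2.92 (adjusted p = 5.17e-05) for Gsdmd, 1.97 (adjusted p = 0.000255) for Casp4 and -2.17 (adjusted p = 0.0137) for Gsdmc. Summed, the 4 similar copies were not called at day 6 (1.09, adjusted p = 0.102) or day 9 (-0.72, adjusted p = 0.377). In anus, Gsdmc made up 96.3% and 97.5% of their mean TPM at these days. The sum therefore cannot show whether the gaps of Gsdmc2, Gsdmc3 and Gsdmc4 depend on the split among them, and these copies were not summed without Gsdmc. With a pseudocount of 0.1, Gsdmc3 (3.53, adjusted p = 0.00172) and Gsdma (1.90, adjusted p = 0.00709) were also called at day 9, against 0.81 (adjusted p = 0.4) for Gsdmc3 with a pseudocount of 1. The Gsdmc gap at day 6 was lost without any 1 of mice 2, 3, 4, 8, 9 and 10 (adjusted p = 0.0622 to 0.135) and at day 9 without any 1 of mice 2 and 12 (adjusted p = 0.0512 to 0.0534). The day 6 gap of Gsdmc was lost with TMM factors (adjusted p = 0.145) and with low genes kept in (adjusted p = 0.0757) as well. The Casp1 gap at day 6, 0.96 (adjusted p = 0.0377), was lost with low genes kept in (adjusted p = 0.0631) and without any 1 of mice 1, 2, 4, 8, 9 and 10 (adjusted p = 0.0529 to 0.101). At day 9, Gsdma (0.0563, adjusted p) was called with the mouse as a replicate block (adjusted p = 0.0391), in the fit of all 66 samples (adjusted p = 0.0318), with mitochondrial genes left out (adjusted p = 0.046) and without any 1 of mice 1 and 4 (adjusted p = 0.0289 to 0.0469), and Gsdme without mouse 1 (adjusted p = 0.0311).

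**Figure D3:**
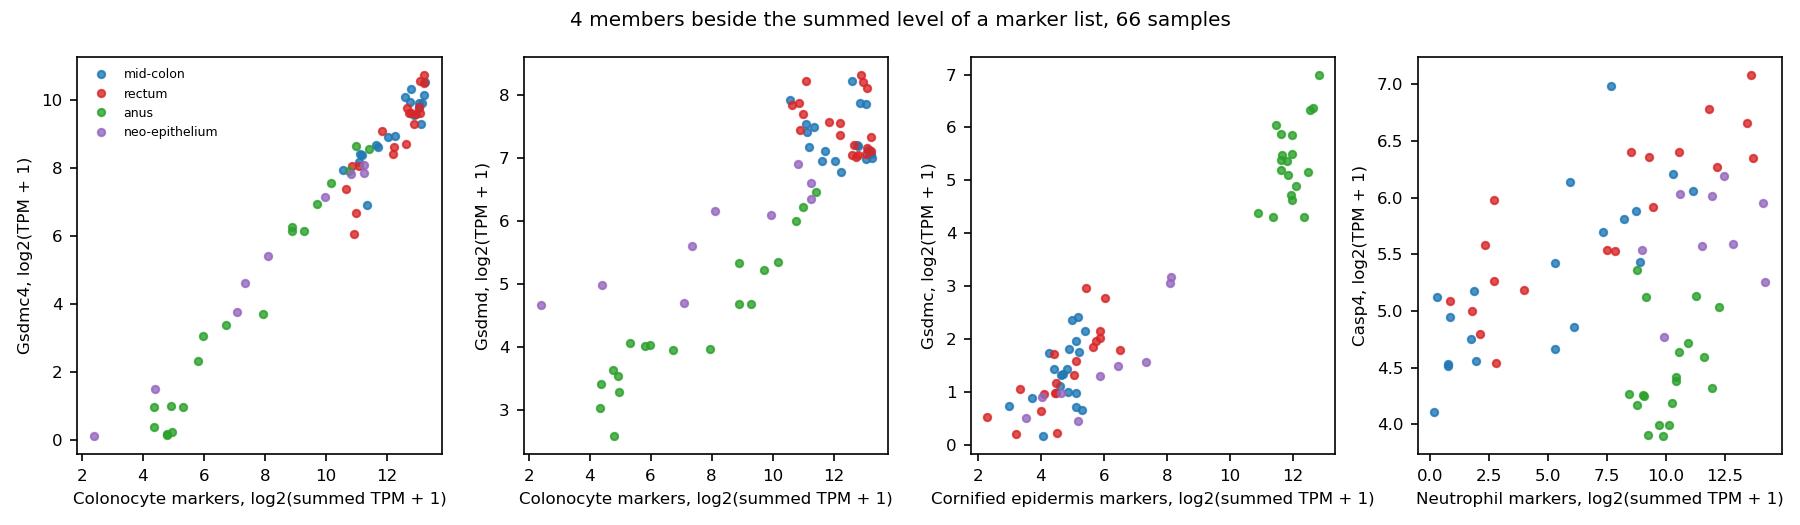
Each point is 1 of 66 samples, coloured by section, with the log2(TPM + 1) of a member on the vertical axis and the log2(summed TPM + 1) of a marker list on the horizontal axis. Gsdmc4 runs along the colonocyte markers in every section, and Gsdmd leaves that line upward in mid-colon, rectum and neo-epithelium. Gsdmc is high in the anus samples with at least 1912 TPM of cornified epidermis markers. Casp4 stays low in anus at neutrophil marker sums that go with high Casp4 in rectum. Uninjured anus already had a far higher sum than uninjured rectum, so equal sums need not mean equal neutrophil numbers in these sections.

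The squamous neo-epithelium carried little of the gasdermins of the squamous anus. Gsdma read 0.628, 2.81 and 4.12 TPM at day 9, 0.205, 0.248 and 0.406 TPM at day 14 and 0.286, 0.844 and 1.34 TPM at day 20, whereas no anus sample of those days was under 20.6 TPM. Gsdmc read 1.47, 7.33 and 8, 0.431, 0.883 and 0.997 and 0.378, 1.82 and 1.99 TPM at these days, against at least 19.8 TPM in anus. With day as a covariate, the differences from anus were -4.38 ± 0.22 (SE, adjusted p = 5.26e-11) for Gsdma and -3.91 ± 0.30 (SE, adjusted p = 1.44e-08) for Gsdmc (n = 9 per section), without overlap. Against rectum they were -0.26 ± 0.19 (SE, adjusted p = 0.296) and 0.71 ± 0.34 (SE, adjusted p = 0.103), neither called, though Gsdmc was called higher than in rectum in the fit of all 66 samples (adjusted p = 0.0072). The days differed for Gsdmc. At day 9 it read 1.47, 7.33 and 8 TPM in neo-epithelium against 0.159, 0.182 and 0.45 TPM in rectum, with no overlap, whereas the sections overlapped at days 14 and 20, a difference between days that was not tested. Squamous markers summed to 30400 to 32580 TPM in neo-epithelium and 14880 to 24860 in anus at day 9, but the 5 cornified epidermis markers summed to 58.1 to 278 and 3587 to 6446 TPM, and all 5 were called lower in neo-epithelium. Their part in the result was not tested.

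The other 7 members were higher in neo-epithelium than in anus. Gsdmd averaged 62.2 ± 33.2 TPM against 12.9 ± 5.78 TPM (SD, n = 9 each), a difference of 2.10 ± 0.17 (SE, adjusted p = 1.92e-08). Casp4 averaged 51.5 ± 14.7 against 20.9 ± 7.8 TPM, a difference of 1.28 ± 0.21 (SE, adjusted p = 7.08e-05), and Casp1 84.1 ± 42.8 against 35.9 ± 9.85 TPM, a difference of 0.98 ± 0.23 (SE, adjusted p = 0.00163). The Casp1 sections overlapped at day 9, at 15.8, 33 and 35.9 against 22.1, 25.9 and 35 TPM, and did not at day 14 (111, 116 and 119 against 29.2, 39 and 42.9 TPM) or day 20. Gsdmc4, Gsdmc2 and Gsdmc3 were higher as well, by 2.96 (adjusted p = 0.000653), 2.12 (adjusted p = 0.000925) and 1.80 (adjusted p = 0.00375). At day 9, however, the sections overlapped for each of these copies. Gsdmc4 then read 0.0806, 1.81 and 12.4 TPM in neo-epithelium against 0.112, 0.166 and 0.311 TPM in anus. The 4 similar copies summed were not called (0.39, adjusted p = 0.527). All 9 members were called, beside 58.5% of genes. The Gsdme call, 0.38 (adjusted p = 0.0233), was lost without any 1 of mice 11 and 13 (adjusted p = 0.0628 to 0.0668) and with TMM factors (adjusted p = 0.0617). Of 6 colonocyte markers, 5 were called higher in neo-epithelium and 1 lower, and 5 of 6 neutrophil markers were called higher.

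Compared with rectum, 6 of 9 members were lower in neo-epithelium and none higher, beside 42% of genes. Gsdmd averaged 62.2 ± 33.2 against 201 ± 48.1 TPM, with no overlap, a difference of -1.84 ± 0.24 (SE, adjusted p = 1.45e-05). Casp1 differed by -1.08 ± 0.18 (SE, adjusted p = 0.000136) and Gsdmc4 by -2.75 ± 0.58 (SE, adjusted p = 0.00103). Casp4, at 51.5 ± 14.7 against 75.8 ± 30.9 TPM, was not called (0.0859, adjusted p) but was called without mouse 18 (adjusted p = 0.0443). At day 9 Casp4 read 37.3, 47.1 and 61.1 TPM in neo-epithelium against 80.6, 100.3 and 134.5 TPM in rectum, with no overlap. The sections overlapped for Casp4 at days 14 and 20, and a difference between days was not tested. The Gsdme call, -0.37 (adjusted p = 0.0362), was lost without any 1 of mice 11, 12, 15, 16, 17 and 19 (adjusted p = 0.0503 to 0.0951) and with low genes kept in (adjusted p = 0.0557). Colonocyte markers were lower in neo-epithelium, 6 of 6 by the test, and none of 6 neutrophil markers was called.

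Within the neo-epithelium, 5 of 9 members were higher at day 20 than at day 9 and none lower, beside 26.2% of genes. Gsdmc4 read 0.0806, 1.81 and 12.4 TPM at day 9, 23.7, 41.6 and 224 TPM at day 14 and 139.8, 229 and 269 TPM at day 20, a rise of 5.90 ± 0.86 (SE, adjusted p = 0.00598) between the first and last. Casp1 read 15.8, 33 and 35.9, 111, 116 and 119 and 94.4, 115 and 116 TPM, a rise of 1.98 ± 0.31 (SE, adjusted p = 0.00728). Gsdmd read 24.4, 25 and 30.5, 47.4, 69.9 and 119 and 67.5, 80.5 and 96.1 TPM, a rise of 1.57 ± 0.18 (SE, adjusted p = 0.00355). Gsdmc3 rose by 4.05 (adjusted p = 0.00405) and Gsdmc2 by 3.96 (adjusted p = 0.0102), a call lost without mouse 13 (adjusted p = 0.0508). Casp4 was at 47.9 ± 22.9 against 48.5 ± 12 TPM. Gsdmc, at 1.4 ± 0.885 against 5.6 ± 3.59 TPM, was called lower without mouse 11 (adjusted p = 0.0296) and in the fit of all 66 samples (adjusted p = 0.0054), as was Gsdma in that fit (adjusted p = 0.017). The colonocyte markers rose as well, 6 of 6 by the test, to a sum of 994 to 2444 TPM from one of 4.26 to 136, and their part in the result was not tested.

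**Figure D4:**
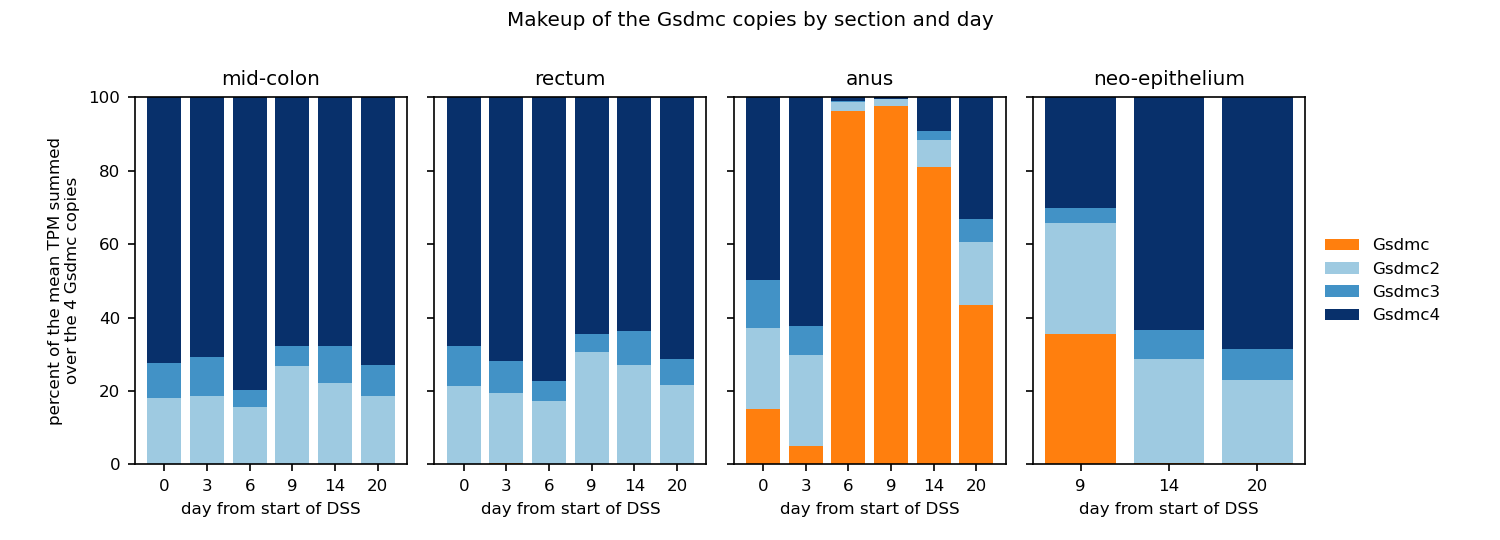
Share of each Gsdmc copy, in percent of the mean TPM summed over the 4 copies, by section (panels) and day (bars). Gsdmc4 makes up most of the bar in mid-colon and rectum on every day, and Gsdmc makes up nearly all of it in anus at days 6 and 9 but not in neo-epithelium at days 14 and 20.

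The makeup of the 4 copies shows these shifts in 1 measure, as the share of a copy in their summed TPM. Gsdmc4 held 65.5% to 70.9% in rectum at day 0 and 71.4% to 72.9% in mid-colon. At day 6 it held 73.6% to 81.9% and 77.9% to 82.6%, respectively. The share of Gsdmc3 at day 6 was 3.78% to 6.69% in rectum against 9.34% to 12.1% at day 0, and 3.27% to 5.53% in mid-colon against 9.11% to 9.69%, without overlap. At day 9 the share of Gsdmc2 was 28.8% to 34.2% in rectum against 19.6% to 22.1% at day 0. Gsdmc itself held 4.33% to 41.7% in anus at day 0, 95.1% to 97.5% at day 6 and 25.9% to 75.9% at day 20. In neo-epithelium it held 5.53% to 88.9% at day 9 and 0.199% to 0.518% at day 20. These shares are descriptions without a test, and the split among the similar copies limits them.

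The inflammasome list joins the sensors that start inflammasomes with the adaptor gene Pycard and with Nek7. It followed no single course in rectum at day 9. There 2 of 13 genes tested were called higher and 7 lower, beside 53.5% of all genes called. Nlrp3 went from 0.0541 to 29.8 TPM, log2 difference 4.61 and Mefv, which encodes pyrin, from 0.175 to 15.1 TPM, log2 difference 3.70. Nlrp6, a sensor of the intestinal epithelium, went from 48 to 7.39 TPM, log2 difference -2.54. In anus at day 6, 8 of 12 were lower and 1 higher beside 15% of genes, led by Naip1, a detector of bacterial secretion systems (from 13.7 to 0.362 TPM, log2 difference -3.27), and at day 9, 8 of 11 were lower beside 5.09%. In neo-epithelium 8 of 13 were lower and 1 higher than in rectum (beside 42% of genes called), among them Naip1 (from 83.4 to 21.7 TPM, log2 difference -2.66) and Nlrp6 (from 30.0 to 7.85 TPM, log2 difference -2.25), and 11 of 13 were higher than in anus (beside 58.5%). The median difference over the inflammasome list was -0.74 in rectum at day 9, against 0.13 over all genes tested.

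Among cytokines released through gasdermin pores, Il1b and Il18 both rose at day 6 and parted at day 9. Il1b, the interleukin-1 beta precursor, rose from 0.272 to 182 TPM, log2 difference 6.74 in rectum at day 6 and from 0.272 to 1174 TPM, log2 difference 9.54 at day 9. Il18 rose at day 6 (from 170.5 to 257 TPM, log2 difference 0.59) and fell at day 9 (from 170.5 to 50.8 TPM, log2 difference -1.77). In mid-colon Il18 likewise rose at day 6 (from 209 to 361 TPM, log2 difference 0.78) and fell at day 9 (from 209 to 108 TPM, log2 difference -0.95). In anus Il1b rose at day 6 (from 2.54 to 252 TPM, log2 difference 5.86). Il18bp, the secreted inhibitor of interleukin-18, rose in rectum at day 9 (from 2.96 to 62.4 TPM, log2 difference 3.84).

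Guanylate-binding proteins are interferon-induced GTPases that expose lipopolysaccharide to caspase-11. In rectum 6 of 7 genes of the list of these and of interferon regulatory factors were called higher at day 9 and 1 lower, beside 53.5% of all genes called, with a median difference of 2.81. Gbp2 went from 15.5 to 509.8 TPM, log2 difference 4.57 and Gbp5 from 0.611 to 57.2 TPM, log2 difference 4.67. At day 6 in rectum, 5 of 7 were higher and 1 lower beside 48.7%, with Gbp2 from 15.5 to 115 TPM, log2 difference 2.88. In mid-colon 5 of 7 were higher and 1 lower at day 9 beside 43.4%, and 2 higher and 1 lower at day 6 beside 14.9%. In anus none was called higher and 2 of 7 lower at day 6 beside 15%, and Irf2, an activator of Gsdmd transcription, fell (from 14.6 to 3.71 TPM, log2 difference -1.67). In neo-epithelium 5 of 7 were higher than in anus beside 58.5%, with Irf1 from 64 to 207 TPM, log2 difference 1.82.

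Lysis partners, other caspases and granzymes were looked at next. Of 3 lysis and repair genes, 2 were called higher in rectum at day 9, where 53.5% of all genes were called. Ninj1, which ruptures the membrane of dying cells, rose in rectum at day 9 (from 22.1 to 84 TPM, log2 difference 1.88) and in anus at day 6 (from 28.3 to 57.6 TPM, log2 difference 1.00). Casp8 rose in rectum at day 9 (from 57 to 141 TPM, log2 difference 1.28). Casp14, a caspase of cornifying epithelium that is also among the cornified epidermis markers, fell in rectum at day 9 (from 48 to 9.4 TPM, log2 difference -2.64) and was far lower in neo-epithelium than in anus (from 88.3 to 9.12 TPM, log2 difference -3.60). The granzyme genes Gzma and Gzmb were both called higher in rectum at day 9 (Gzma from 0.0937 to 22.1 TPM, log2 difference 4.204). The list tied to type 2 cytokines joins the cytokine genes Il4 and Il13 with Il4ra, Il13ra1, Stat6 and Retnlb. The 4 of 6 genes that passed the level filter all rose in rectum at day 9 (beside 53.5% of genes called). They were led by Il4ra (from 2.03 to 42.5 TPM, log2 difference 3.85) and Retnlb (from 0.319 to 13 TPM, log2 difference 3.35). Gsdmc2, Gsdmc3 and Gsdmc4 were lowest on that day, and a tie between these genes and the list was not tested. Of 3 other gasdermin family genes, Gsdma2 alone passed the level filter between neo-epithelium and anus, and like Gsdma it was lower in neo-epithelium (from 2.87 to 0.133 TPM, log2 difference -1.74).

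Of the 9 members, Gsdmc3, Gsdme, Casp1 and Casp4 had a promoter in the RefSeq table (GRCm38.p6). The 250 bases before the start of Casp4 at chr9:5308599-5308848, plus strand, are shown because Casp4 was called higher in rectum at days 3 to 14. Capitals mark matches to the kappaB consensus, and their part in the rise was not tested.
Casp4: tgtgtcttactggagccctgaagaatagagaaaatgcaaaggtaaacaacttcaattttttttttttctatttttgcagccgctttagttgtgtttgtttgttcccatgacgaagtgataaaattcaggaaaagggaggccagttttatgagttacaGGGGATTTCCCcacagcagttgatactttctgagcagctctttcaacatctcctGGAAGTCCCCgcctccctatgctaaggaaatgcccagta
The consensus was matched 3 times on either strand, 2 of the matches overlapping by all but 1 base, and 7.25% of 32851 promoter windows of this length held it. No match to it was found in the windows of Gsdmc3, Gsdme or Casp1. None of the 4 windows held an interferon-stimulated response element (GAAA and GAAA with 2 bases between, in 2.98% of windows), an interferon-gamma activated site (TTCNNNGAA, in 7.02%) or a STAT6 site (TTC and GAA with 4 bases between, in 5.85%). RefSeq gives Casp4 a second start 11 bases downstream, whose window holds the same matches. A match is a description of letters, and the kappaB search was added after the Casp4 window had been read.

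The genes most like each member over the 21 section-and-day groups, by Pearson r of log2 mean TPM among 11840 genes that reached 5 TPM in a group, were as follows. Groups of the same day come from the same mice, so these r values are descriptions. Gsdmc4 was most like Gsdmc2 (r = 0.995), Car1 (r = 0.988) and Phgr1 (r = 0.986), Gsdmc2 most like Gsdmc4 (r = 0.995), Car1 (r = 0.982) and Gsdmc3 (r = 0.981) and Gsdmc3 most like Gm15401 (r = 0.982), Gsdmc2 (r = 0.981) and Sult1c2 (r = 0.98). Car1 encodes a carbonic anhydrase of the colonic epithelium. For Gsdmd they were Nr1h4 (r = 0.991), Sgk2 (r = 0.991) and Tmem150b (r = 0.99), for Casp1 Tax1bp1 (r = 0.982), Ifngr1 (r = 0.982) and Hepacam2 (r = 0.98) and for Casp4 Dusp6 (r = 0.955), Trim15 (r = 0.945) and Tnip3 (r = 0.942). Tnip3 is an inhibitor of NF-kappaB signalling. The nearest genes to Gsdma were Mt4 (r = 0.991), Tnnt3 (r = 0.99) and Lce1h (r = 0.989), of which Lce1h is a late cornified envelope gene and Tnnt3 a skeletal muscle troponin, and those to Gsdmc were Vsig8 (r = 0.964), Sdr16c5 (r = 0.961) and Pnpla1 (r = 0.96). Between members, r was 0.921 for Gsdma and Gsdmc, 0.906 for Casp1 and Gsdmd, 0.737 for Casp4 and Gsdmd and -0.663 for Gsdmc and Gsdmc4. Gsdme reached 5 TPM in no group and was left out.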

How the data were processed

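The deposited table gave kallisto abundances per transcript as a signal in TPM for 66 libraries, made by the authors from stranded single-end reads. Per the submitters' processing notes, CASAVA, kallisto and mm10 were used; the versions and the transcript index are not given in the sources used here. Of 126860 lines, 37344 held no values and 1318 repeated another, which left 88198 transcripts and column sums of 999999.8 to 1000000.2. Transcripts without a gene (1284) were left out, and the rest were summed to 30452 genes. Mitochondrial genes took 6.26% to 28.5% of a library. The single-cell samples are not used here.

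Tests used limma 3.58.1 in R 4.3.3, with a variance trend, on log2(TPM + 1) of the samples a comparison is about. Genes needed 1 TPM in as many samples as the smallest group holds, and Benjamini-Hochberg adjustment ran over all genes tested, with a call at an adjusted p under 0.05. No count test was run, since the values are not counts, and depth is unknown. On simulated data with 12519 genes, 74 of 100 genes changed 2-fold and 94 of 100 changed 4-fold were called, beside 16 false calls. The changed genes were all above 5 TPM, and the spread was that of rectum at day 9 and day 0. Recovery of members under that level, or in other comparisons, was not simulated. Alternatives were TMM factors, mitochondrial genes left out, other pseudocounts (0.1) and filters (none, 5 TPM), all samples in 1 fit, similar copies summed, the mouse as a block, and each mouse left out. The tests of rectal against anal changes were added after the data were seen. Sections pair by mouse, since the labels number the animals. The consensus correlation of sections of 1 mouse was 0.252 between rectum and mid-colon and -0.0548 between anus and rectum at day 0, and 0.155 between neo-epithelium and rectum. Mice are separate animals, so p-values measure the spread between animals.

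The members and the 8 pathway and 9 marker lists were chosen with earlier results of these data known. Other genes of the pathway lists were named from the 3 called genes with the largest change per list and comparison; Il18 in rectum at day 9 falls outside that rule and was chosen after its values were seen. One item of the lists is not reported here. The 3 genes of highest Pearson r over the groups are named per member. Sequences and coordinates come from GENCODE vM21 and RefSeq on GRCm38, the assembly that mm10 denotes.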

Additional observations from a re-analysis of the deposited data

Results flagged for a closer look

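At day 0, 3 of 27 member-and-section groups of 4 mice held a sample set apart from the others by a gap that was large for its group's range, where chance gives about 1 in 20. Gsdmc in anus was at 79.5 TPM in mouse 1, and the other 3 mice were at 18.7, 23.8 and 28.6 TPM. Gsdmc4 in mid-colon was at 633 TPM in mouse 4, and the others were at 962, 965 and 977 TPM. Casp4 in anus was at 19.9 TPM in mouse 1, and the others were at 18.0, 18.1 and 18.3 TPM, so this gap is small in TPM.

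The changes of rectum and anus from day 0 differed in 12 cases by limma's interaction test, chosen after the data were seen, with rectum minus anus given on the log2 scale. At day 6 the difference was -1.75 for Gsdmc, 3.25 for Gsdmc2, 3.16 for Gsdmc3, 5.62 for Gsdmc4, 2.77 for Gsdmd, 0.961 for Casp1 and 1.31 for Casp4. At day 9 it was -2.17 for Gsdmc, 2.2 for Gsdmc2, 3.53 for Gsdmc4, 2.92 for Gsdmd and 1.97 for Casp4. With the 4 similar copies summed, the differences were 1.09 (adjusted p = 0.102) at day 6 and -0.72 (adjusted p = 0.377) at day 9. At day 6 the colonocyte markers summed to 7617 to 8665 TPM in rectum and 19.7 to 38.6 TPM in anus, and their part in these differences was not tested.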

How the results depend on the processing

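Over days 3 to 20, 15 member calls in mid-colon and 27 in rectum became 9 and 16 with all 66 samples in 1 fit, while 13 in anus became 19. Leaving out 1 mouse gave 9 (without mouse 2) to 22 (without mouse 4) calls in mid-colon, 18 to 29 in rectum and 9 to 15 in anus. In the day 9 changes of rectum against mid-colon, the count went from 0 to 1 with no filter and to 1 with the mouse as a replicate block, and lay between 0 and 2 with 1 mouse left out (2 without mouse 11). The block ended no member call, and it added Gsdma in that comparison and in the day 9 changes of rectum against anus.

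TMM factors turned the Gsdmc4 difference in rectum at day 6 to 0.085 (adjusted p = 0.448); the cause was not tested. The Gsdmc difference in anus at day 14, 0.17, ranged from -0.15 to 0.60 with 1 mouse left out, and was below 0 without mouse 4 or 16. Summing the 4 similar copies adds Gsdmc2, Gsdmc3 and Gsdmc4, which are abundant in rectum and in anus at day 0, to Gsdmc, and by that construction the Gsdmc difference became -1.48, -2.19 and -2.25 in anus at days 6, 9 and 14, -2.41 between anus and rectum, -2.22 between neo-epithelium and rectum, 0.39 (adjusted p = 0.527) between neo-epithelium and anus, 4.29 between days 20 and 9 of neo-epithelium and 1.09 (adjusted p = 0.102) in the day 6 changes of rectum against anus. Both comparisons with a p given lost their calls of Gsdmc2, Gsdmc3 and Gsdmc4. In the day 9 changes of rectum against anus the sum gave -0.72 (adjusted p = 0.377) for Gsdmc2, Gsdmc3 and Gsdmc4 alike.

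Of 125 single-member results, TMM factors left 115 with their direction and call, mitochondrial genes left out 119, a pseudocount of 0.1 123, and no filter 106. Over all genes, TMM factors moved the calls from 45 to 135, 529 to 1278 and 189 to 664 in mid-colon at days 3, 14 and 20, from 973 to 1687 in rectum at day 20, from 6 to 2 and 692 to 1195 in anus at days 3 and 9, and from 216 to 107 between rectum and mid-colon at day 0. They moved the median log2 difference of all genes from -0.24 to -0.05 in mid-colon at day 6, from 0.13 to -0.05 in rectum at day 9, from 0.21 to -0.01 between rectum and mid-colon, from 0.17 to 0.07 between neo-epithelium and anus and from -0.14 to -0.01 between days 20 and 9 of neo-epithelium. Without counts, the counting error of low members such as Gsdme could not be measured.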
